A study of Homo sapiens with 9 samples.

Results

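The aminoacyl-tRNA synthetases examined here are 36 nuclear genes, 20 for cytosolic enzymes and 16 for mitochondrial enzymes, out of 32378 genes in the deposited table. The rule that picks them uses gene names only. The mitochondrial set holds the listed members whose symbols end in 2, and the cytosolic set holds all others. All 36 were in the table and all 36 passed the filter on low counts, which left 16450 genes for testing. Symbols are the older ones of GENCODE 29 (AARS for the gene now called AARS1).

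RNA was taken from cultures of SKOV3, a human cell line long established from an ovarian cancer, and sequenced in 9 libraries: 3 control, 3 Carbo and 3 Carbo+COM33. All groups are the same parental line in the same medium. From the series title, Carbo is taken to be the DNA-crosslinking platinum drug carboplatin. COM33 has no other name in the labels. No group received COM33 alone, so its effect could be measured only on top of Carbo, and neither doses nor times are stated. The series asked how COM33 raises the sensitivity of these cells to carboplatin. The labels do not say whether replicate numbers mark separate cultures, so p-values reflect the variation among these samples, and that variation may be technical.

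An aminoacyl-tRNA synthetase joins an amino acid to the transfer RNAs that carry its anticodon, and every protein made by a ribosome depends on it. Class I and class II enzymes differ in the fold of the catalytic domain. In animal cells several cytosolic synthetases sit in a large complex held together by the scaffold proteins AIMP1, AIMP2 and EEF1E1. Mitochondria translate their own small genome with a separate, nuclear-encoded and imported set. Uncharged tRNA activates the kinase GCN2, which raises translation of the transcription factor ATF4, and many cytosolic synthetase genes are ATF4 targets.

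Total counts ran from 13851760 to 15533668 per library. Normalization factors were between 0.982 and 1.01. The 10 listed epithelial and ovarian markers of SKOV3 were all tested, and their summed level was 3975 to 4161 CPM (counts scaled to a common library size) in control, 3785 to 4105 in Carbo and 2915 to 3352 in Carbo+COM33. Of the 10, ERBB2 fell by 0.52, KRT7 by 1.18 and MSLN by 0.49 on the log2 scale in Carbo+COM33 against control (edgeR adjusted p of 0.00807, 0.0112 and 0.0294). In that comparison 8 of the 10 were lower and 2 higher, and 0 passed as higher. PAX8 was among the higher ones, with means of 380 CPM in control, 331 in Carbo and 486 in Carbo+COM33. Of 14 markers of blood, endothelial, liver, nerve, muscle and fibroblast cells, 3 passed the filter, MYOG was not in the table, and the list summed to 1.77 to 4.53 CPM. In bulk RNA, a change in the number of cells of a kind and a change in RNA per cell cannot be told apart.

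Cytosolic synthetase transcripts were far more abundant than mitochondrial ones. Levels between genes are given as deposited FPKM (fragments per kilobase of exon, scaled to the library total), which allows for gene length. The median in control was 45.2 FPKM for the 20 cytosolic genes and 5.96 for the 16 mitochondrial genes. AARS, the alanine enzyme, was highest at 193 ± 1.54 FPKM (SD, n = 3), followed by SARS, the serine enzyme, at 165 ± 4.62. NARS (asparagine) had 90 ± 2.62 FPKM and IARS (isoleucine) 84.4 ± 3.35, and the libraries of these neighbours overlapped. The lowest cytosolic gene was HARS, the histidine enzyme, at 4.73 ± 0.523 FPKM. YARS2, the mitochondrial tyrosine enzyme, led its set at 51.6 ± 1.7 FPKM, level with the cytosolic glycine enzyme GARS at 51.6 ± 1.68. IARS2 had 29.2 ± 0.743 FPKM and RARS2 19 ± 0.421, and every other mitochondrial gene was below 10 FPKM. Among the genes at ranks 23 to 33 (HARS2, AARS2, VARS2, NARS2, EARS2, TARS2, PARS2, LARS2, WARS2, CARS2 and HARS) every neighbouring pair overlapped. Over the whole order, 21 neighbouring pairs overlapped.

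**Figure D1:**
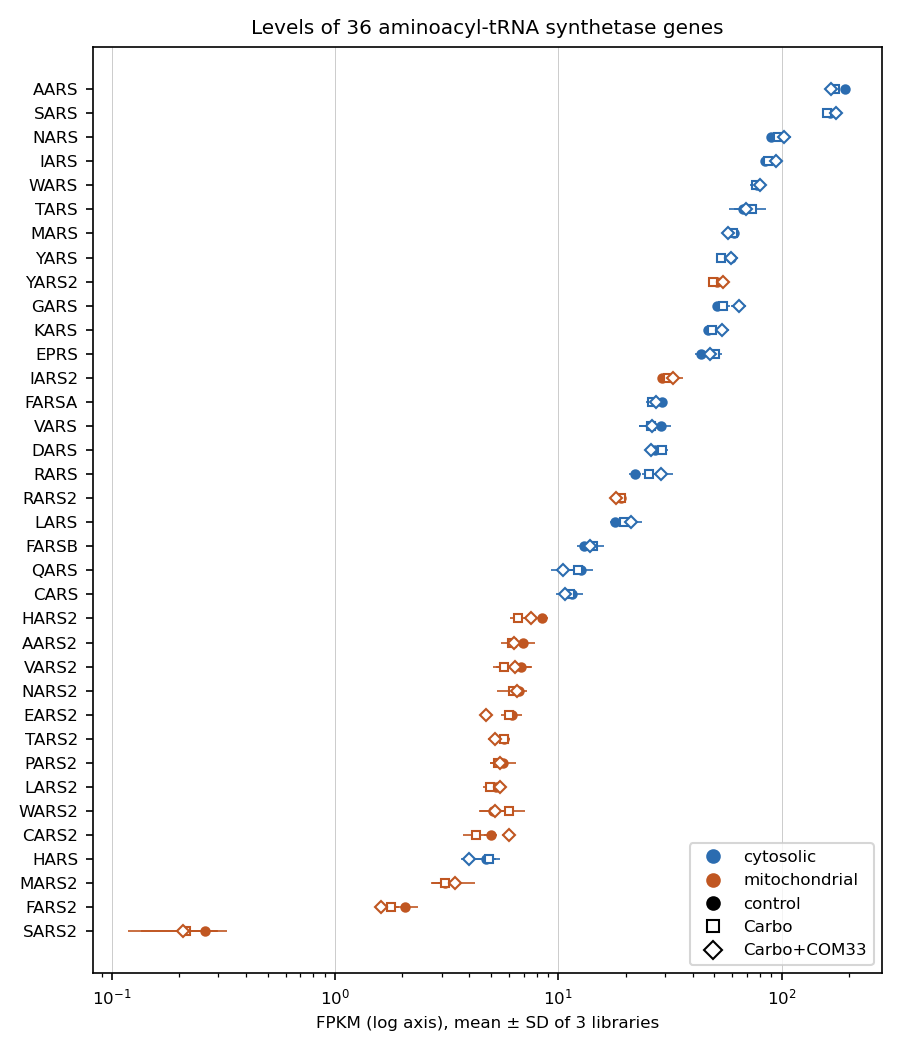
Level of each of the 36 synthetase genes, as FPKM on a log axis (mean ± SD of 3 libraries), ordered by control; blue marks cytosolic and orange mitochondrial genes, and the marker shape gives the group. AARS lies at 193 FPKM and SARS2 at 0.262 in control, and the 3 groups of a gene lie close together.

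For 13 amino acids a cytosolic and a mitochondrial gene have matching symbols (AARS and AARS2, for example). The cytosolic transcript was higher in 12 of these and lower in 1. The exception was histidine, where HARS2 had 8.45 ± 0.543 FPKM against 4.73 ± 0.523 for HARS, a ratio of 0.559. The pair is arranged head to head on chromosome 5, and 11.7% of HARS2 exon bases lie opposite HARS. Without stated counting settings, strand included, the handling of reads from the shared stretch is unknown for both genes. The median ratio of cytosolic to mitochondrial level was 4.19. Ratios were near 1 for tyrosine (1.15) and arginine (1.16), and 27.8 for alanine, 19.8 for methionine, 15.2 for tryptophan and 13.5 for asparagine. For serine the ratio was 629, since SARS2 was at 0.262 ± 0.0676 FPKM. SARS2 had between 0.349 and 1.03 CPM per library, and 46.2% of its exon bases are shared with AC011455.2 on the same strand, so its level is uncertain. Without matching symbols, EPRS had 43.5 FPKM against 6.2 for EARS2 (glutamate) and 5.68 for PARS2 (proline). The cytosolic phenylalanine enzyme subunits FARSA and FARSB had 29.1 and 13 FPKM against 2.06 for FARS2. GARS and KARS also supply mitochondria from the same gene, and QARS has no mitochondrial counterpart in the list.

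Together the 20 cytosolic genes took between 0.558% and 0.612% of all counts. Their summed level was 5636, 5651 and 5927 CPM in control, 5585, 5674 and 5901 in Carbo, and 6124, 6000 and 5890 in Carbo+COM33. The 3 groups overlapped in this sum, apart from Carbo+COM33 1 and 2, which lay above all other libraries. The mitochondrial genes summed to 639, 605 and 613 CPM in control, 618, 581 and 576 in Carbo, and 656, 621 and 643 in Carbo+COM33. All 3 Carbo+COM33 libraries lay above all 3 Carbo libraries in the mitochondrial sum, and control overlapped both. The cytosolic sum exceeded the mitochondrial sum 8.83, 9.34 and 9.67 times in control, 9.04, 9.77 and 10.2 times in Carbo, and 9.34, 9.66 and 9.16 times in Carbo+COM33, so the ranges overlapped between groups. By replicate number, the ratio was higher and the mitochondrial sum lower in Carbo than in control in 3 of 3 pairs; this was not tested.

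The promoters of cytosolic synthetases are known to carry the C/EBP-ATF response element, the composite site bound by ATF4. RefSeq promoter windows on GRCh38.p14, from 250 bases before to 50 bases after the transcription start, were matched for 30 of the 36 genes (16 cytosolic, 14 mitochondrial). They were searched on both strands for TTGCATCA and TGATGCAAT. The second motif read on the other strand contains the first, so each match of the second is also a match of the first. Of the cytosolic genes with a window 6 of 16 (37.5%) held a match, of the mitochondrial genes 0 of 14, and of all 27305 genes with a window 295 (1.08%). All 6 genes with a match belong to the 13 cytosolic members listed as ATF4 targets, of which 10 had a window. Stretches of 30 bases around each match are shown because matches were found in cytosolic members only, 6 of the 16 with a window, with the matched letters in capitals. They are written in the direction of transcription.
AARS: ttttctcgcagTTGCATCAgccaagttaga
CARS: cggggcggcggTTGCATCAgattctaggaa
IARS: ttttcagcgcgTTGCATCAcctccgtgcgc
MARS: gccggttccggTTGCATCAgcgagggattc
NARS: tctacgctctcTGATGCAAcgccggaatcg
TARS: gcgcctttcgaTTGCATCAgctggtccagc

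The stretch of AARS is at chr16:70289675-70289704 (minus strand), with the match 187 to 180 bases before the start. That of CARS, the cysteine enzyme, is at chr11:3057407-3057436 (minus), and that of IARS at chr9:92293692-92293721 (minus). That of MARS, the methionine enzyme, is at chr12:57488053-57488082 (plus). That of NARS is at chr18:57621804-57621833 (minus), where the letters stand in the opposite orientation and lie downstream of the start. That of TARS, the threonine enzyme, is at chr5:33440956-33440985 (plus), where the longer motif is also complete. A match describes these letters only and is no evidence of binding.

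Of the 6 genes with a match, 0 passed in any comparison of the unpaired edgeR fit, and 1, AARS, fell in the paired fit of Carbo against control (adjusted p = 0.0133). Their unpaired median log2 fold change was 0.01 in Carbo against control (-0.16 to 0.13), -0.03 in Carbo+COM33 against Carbo (-0.06 to 0.14) and 0.00 in Carbo+COM33 against control (-0.19 to 0.21). The 24 members with a window and no match had medians of -0.03, 0.09 and 0.06.

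Carbo against control asked what the platinum drug alone did to these genes. Group differences are log2 fold changes from edgeR's quasi-likelihood fit of all 9 libraries, with Benjamini-Hochberg adjustment over 16450 genes and a threshold of 0.05. No synthetase passed that test, 0 of 20 cytosolic and 0 of 16 mitochondrial, and the share over all genes was also 0%. At an unadjusted p under 0.05, 2 cytosolic and 1 mitochondrial gene and 16.7% of all genes stood, and DESeq2 called 132 genes. The cytosolic median was 0.05, with 11 of 20 above 0 and a range from -0.16 (AARS) to 0.21 (EPRS). The mitochondrial median was -0.08, with 11 of 16 below 0 and a range from -0.36 (HARS2) to 0.23 (WARS2). Over all genes the median was 0.00. In 7 members, the groups did not overlap: EPRS and NARS were higher and SARS, YARS, FARSA, AARS and HARS2 lower, against 22.5% of all genes in either direction.

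**Figure D2:**
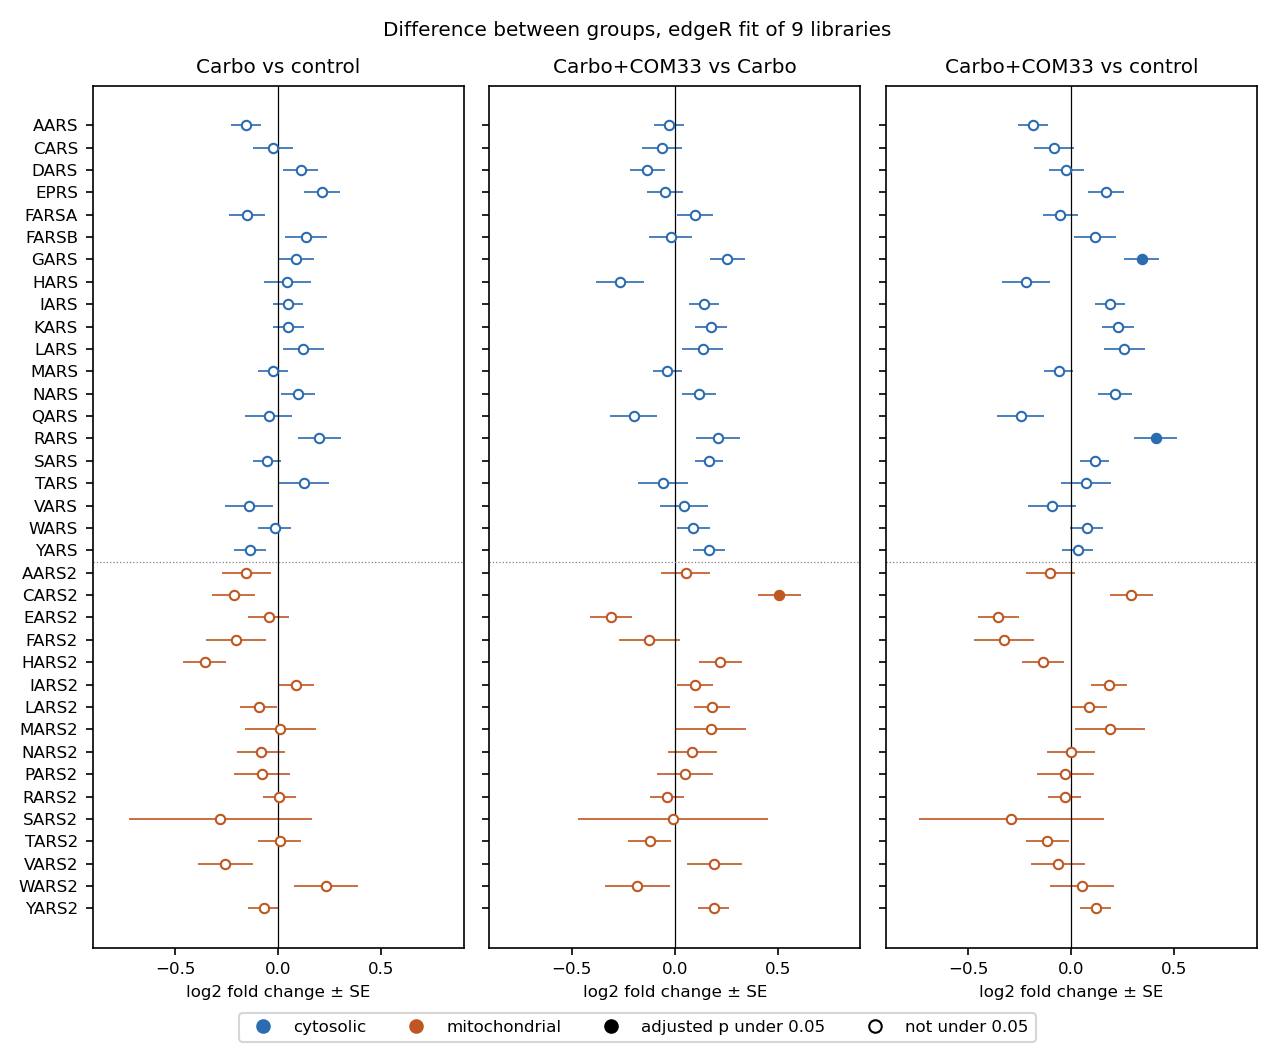
Log2 fold change ± SE of each synthetase gene in the 3 comparisons, from the edgeR fit of 9 libraries; filled points have an adjusted p under 0.05. Filled are CARS2 in Carbo+COM33 vs Carbo (0.51), and GARS (0.34) and RARS (0.41) in Carbo+COM33 vs control.

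Control and Carbo libraries of the same number deviated together from their group means (correlations of 0.824, 0.565 and 0.748). Those of unlike number had correlations from -0.779 to 0.402. A fit with the replicate number as a block is therefore given beside the unpaired one. In that paired fit of 6 libraries, with 2 residual degrees of freedom, 2 cytosolic genes rose and 3 fell, and 0 mitochondrial genes rose and 3 fell. Over all genes 11.2% rose and 11.5% fell in the same fit. When the trend of every library with GC content and gene length was also removed, 9.96% of all genes passed, and of the synthetases only HARS2. With the block fitted over all 9 libraries and no such correction, 0 genes passed, synthetases included.

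HARS2, the mitochondrial histidine enzyme (chr5:140691426-140699318), had 32.7, 29 and 32.8 CPM in control and 26.8, 23.4 and 23.4 in Carbo. All Carbo libraries lay below all control libraries. The paired log2 fold change was -0.36 (SE 0.0819, edgeR adjusted p = 0.00456), and -0.34 (adjusted p = 0.0115) with the GC and length trend removed. It passed with each pair left out, at -0.40, -0.38 and -0.29. In Carbo+COM33 it had 28.7, 26.7 and 30.5 CPM, between the other groups and overlapping both. Its head-to-head neighbour HARS was not called, at 0.04 in the unpaired fit.

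VARS2, the mitochondrial valine enzyme (chr6:30908242-30926459), fell by 0.26 in the paired fit (SE 0.0622, edgeR adjusted p = 0.00642). Its level was 62.3, 59.9 and 50.4 CPM in control and 52.6, 49.7 and 42.3 in Carbo. It was lower in each of the 3 pairs, although the groups overlapped. With the GC and length trend removed it was -0.10 (adjusted p = 0.342). CARS2, the mitochondrial cysteine enzyme (chr13:110641412-110713603), fell by 0.22 (SE 0.0711, adjusted p = 0.0327) in the paired fit, from 56.3, 49.4 and 50.2 CPM to 49.4, 46.2 and 38.4. It too was lower in 3 of 3 pairs, and stood at -0.13 (adjusted p = 0.28) after the correction.

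Among cytosolic genes EPRS, a fused enzyme for glutamate and proline (chr1:219968601-220046658), rose by 0.21 in the paired fit (SE 0.0442, edgeR adjusted p = 0.00259). It had 232, 224 and 252 CPM in control and 263, 261 and 297 in Carbo. The groups did not overlap. With the GC and length trend removed EPRS was at 0.12 (adjusted p = 0.0856). RARS, the arginine enzyme (chr5:168486445-168519299), rose by 0.20 (SE 0.0545, adjusted p = 0.0148), from 72.5, 72.7 and 80.8 CPM to 85.4, 80.6 and 93.6, and was at 0.08 (adjusted p = 0.424) after the correction. Both sit in the multi-synthetase complex.

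AARS (chr16:70252295-70289543) had 877, 851 and 863 CPM in control and 807, 767 and 750 in Carbo, groups that did not overlap. It fell by 0.16 in the paired fit (SE 0.0434, edgeR adjusted p = 0.0133). YARS, the tyrosine enzyme (chr1:32775237-32818153), fell by 0.14 (SE 0.0425, adjusted p = 0.0268), from 491, 475 and 485 CPM to 440, 435 and 446. VARS, the valine enzyme (chr6:31777518-31795953), also fell by 0.14 (SE 0.0465, adjusted p = 0.0327), from 153, 180 and 188 CPM to 137, 161 and 174. VARS was lower in every pair, yet its groups overlapped. After the GC and length correction AARS was at -0.08, YARS at -0.03 and VARS at 0.08, which turned the sign of VARS, and none of these passed.

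**Figure D3:**
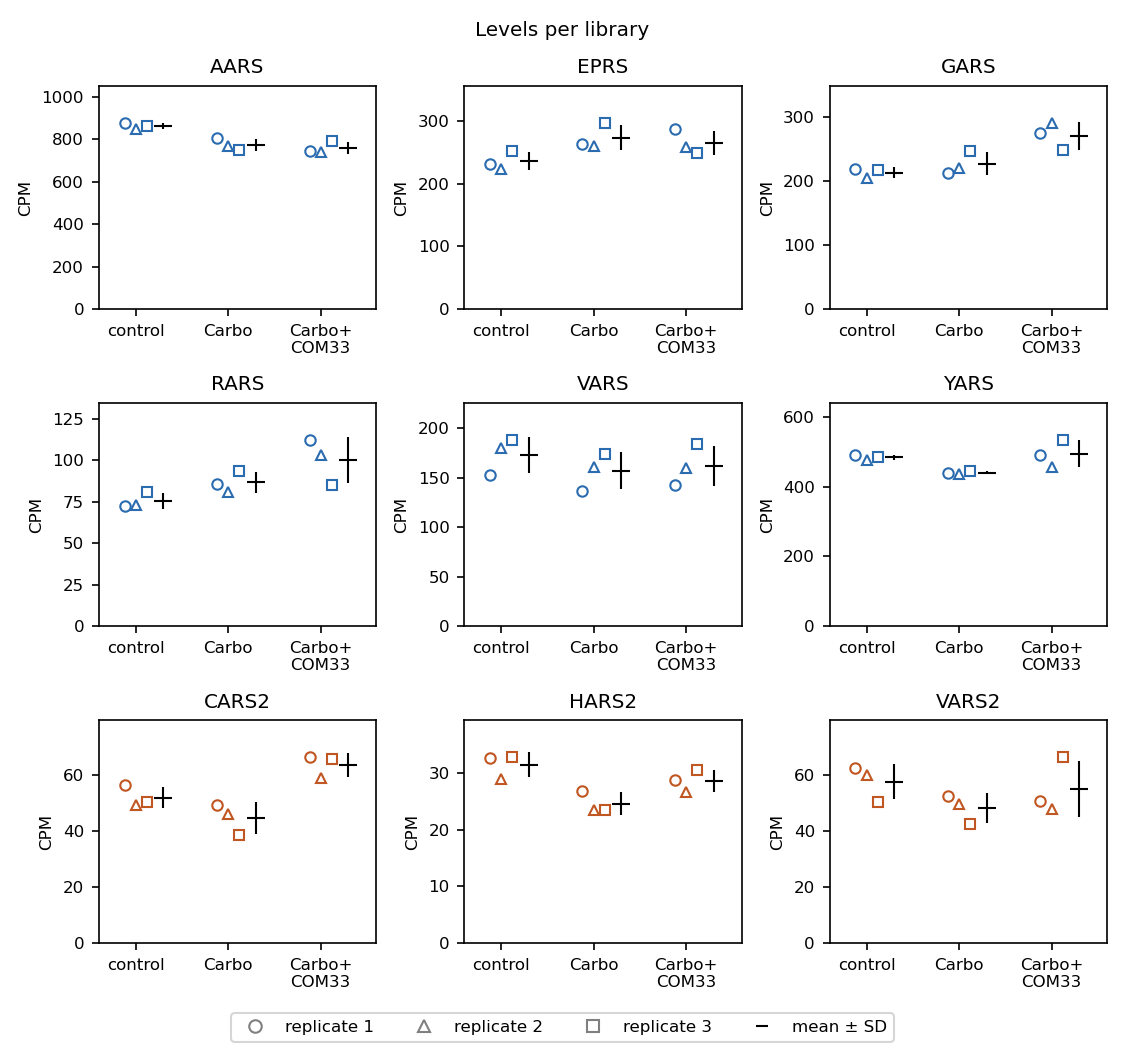
CPM of the 9 synthetase genes that passed the test in some comparison, unpaired or paired; open symbols are libraries by replicate number, and the black line is the mean ± SD of 3. HARS2 in Carbo (23.4 to 26.8) lies below control (29 to 32.8), and CARS2 in Carbo+COM33 (58.8 to 66.3) lies above both other groups.

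The difference between Carbo and control moved with the base composition of the transcripts. Among the 36 members the log2 fold change had a Pearson r of -0.77 and a Spearman rho of -0.80 with the GC content of the longest transcript. Over all 16450 genes these were -0.46 and -0.53. The points are genes that share the same libraries, so no p is given. Of the 18 members of lower GC (41.2% to 49.9%) 15 were above 0, and of the 18 of higher GC (50.8% to 62.6%) 17 were below 0. The mitochondrial genes had a median GC content of 51.2% and the cytosolic genes 47.7%. With the trend removed, r was -0.08 among the members, the cytosolic median 0.02 and the mitochondrial median -0.05. HARS2, at 49.9% GC, lay apart from the trend.

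**Figure D4:**
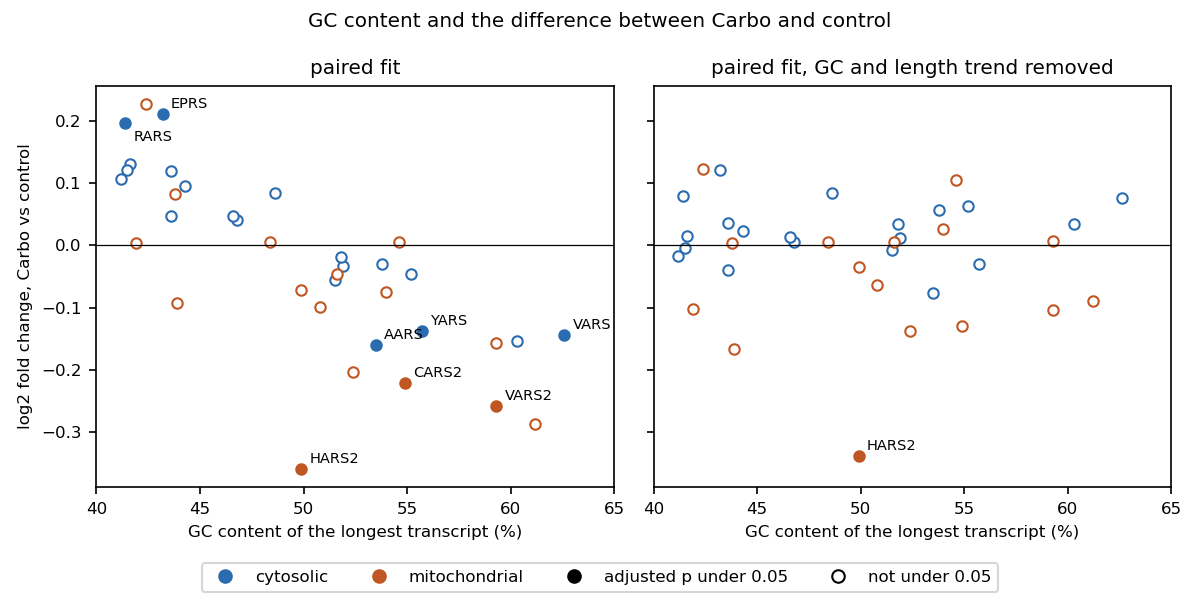
Log2 fold change of Carbo vs control against transcript GC content (%) for 36 synthetase genes, in the paired fit (left) and with each library's GC and length trend removed (right); filled points have an adjusted p under 0.05. The slope on the left has r = -0.77 and the right panel r = -0.08, and HARS2 stays low at -0.34.

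Carbo+COM33 against Carbo asked what COM33 added. CARS2 was the only member to pass: 1 of 16 mitochondrial genes rose and 0 of 20 cytosolic genes passed, against 4.96% of all genes. CARS2 charges mitochondrial cysteine tRNA and is also known to make cysteine persulfides. It had 49.4, 46.2 and 38.4 CPM in Carbo and 66.3, 58.8 and 65.5 in Carbo+COM33. All Carbo+COM33 libraries lay above every Carbo and control library. The log2 fold change was 0.51 (SE 0.106, edgeR adjusted p = 0.0175), a fold of 1.42. The call was lost without Carbo 2 (adjusted p = 0.0804), Carbo 3 (0.0702), Carbo+COM33 1 (0.0821) or Carbo+COM33 3 (0.0526), while the log2 fold change stayed between 0.41 and 0.59. Its transcript has 54.9% GC, and across members r with GC content was 0.08 in this comparison.

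The other synthetases gave smaller differences. The cytosolic median was 0.07 (range -0.27 for HARS to 0.25 for GARS) and the mitochondrial median also 0.07 (range -0.31 for EARS2 to 0.51 for CARS2), against -0.01 for all genes. EARS2, the mitochondrial glutamate enzyme, had 33.4, 33.1 and 36.4 CPM in Carbo and 26.6, 28 and 28.5 in Carbo+COM33. These groups did not overlap, but EARS2 did not pass (log2 fold change -0.31, edgeR adjusted p = 0.0968). In all, 8 members were higher without overlap (IARS, YARS, SARS, KARS, GARS, LARS2, YARS2 and CARS2) and 3 lower (DARS, HARS and EARS2), against 23.7% of all genes in either direction.

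Carbo+COM33 against control shares its libraries with both comparisons above. Here 2 of 20 cytosolic genes rose, GARS and RARS, and 0 of 16 mitochondrial genes passed, against 6.29% of all genes. GARS (chr7:30594681-30634033) had 219, 204 and 217 CPM in control, 213, 220 and 247 in Carbo and 274, 290 and 248 in Carbo+COM33. Carbo overlapped control. The log2 fold change of GARS in Carbo+COM33 against control was 0.34 (SE 0.0854, edgeR adjusted p = 0.0348). Every Carbo+COM33 library lay above every Carbo and control library, with Carbo+COM33 3 close to Carbo 3. RARS had 112, 103 and 85 CPM in Carbo+COM33 against 72.5, 72.7 and 80.8 in control, and a log2 fold change of 0.41 (SE 0.105, adjusted p = 0.0397). Carbo+COM33 3 lay within the range of Carbo for RARS.

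Neither call held without control 2, control 3, Carbo 2, Carbo+COM33 1 or Carbo+COM33 2 (edgeR adjusted p from 0.0605 to 0.177 for GARS and from 0.0584 to 0.194 for RARS), and RARS was also lost without control 1 (0.0742). Across the runs without 1 library, calls in this comparison ran from 0 to 5 for cytosolic and from 0 to 1 for mitochondrial genes. Calls over all 16450 genes ran from 114 to 2208 in the same runs. In the fit of all 9 libraries the cytosolic median was 0.07 and the mitochondrial median -0.03, against -0.01 for all genes. EARS2 was lowest at -0.35 (edgeR adjusted p = 0.0562, DESeq2 adjusted p = 0.0398), with 31.5, 35.8 and 38.9 CPM in control. Groups did not overlap for 9 members that were higher (SARS, IARS, NARS, KARS, GARS, RARS, LARS2, YARS2 and CARS2) and 4 that were lower (MARS, AARS, FARS2 and EARS2), against 28.7% of all genes. Across members r with GC content was -0.51.

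**Figure D5:**
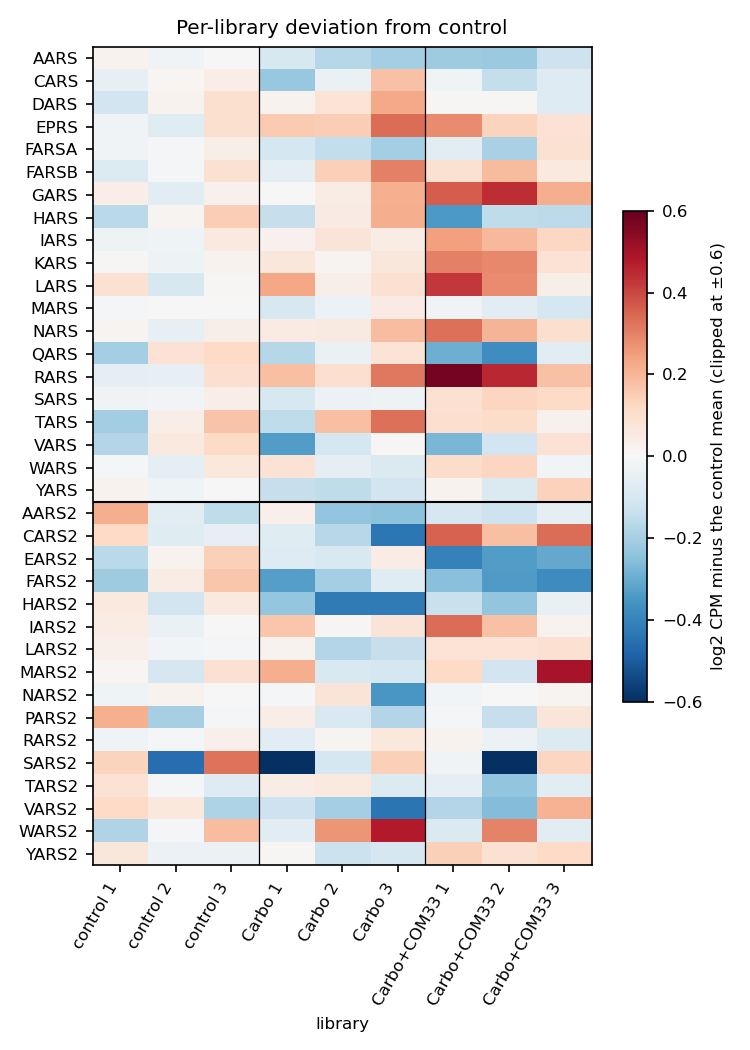
Log2 CPM of each synthetase gene in each library minus its mean log2 CPM in control (colour, clipped at ±0.6); cytosolic genes are above the black line. GARS, RARS and LARS are red in Carbo+COM33 1 and 2 and paler in Carbo+COM33 3, and EARS2 and FARS2 are blue in all 3 Carbo+COM33 libraries.

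The catalytic classes had similar medians. In Carbo against control, the 19 class I genes had a median of -0.02 and the 17 class II genes -0.05. In Carbo+COM33 against Carbo the medians were 0.10 and 0.05, and against control 0.07 and -0.03. The 8 enzymes of the multi-synthetase complex (EPRS, IARS, LARS, QARS, MARS, KARS, RARS and DARS) had medians of 0.08, 0.05 and 0.18 in the 3 comparisons in that order. Within the complex QARS, the glutamine enzyme, was lowest in Carbo+COM33 against control (-0.24, edgeR adjusted p = 0.21) and RARS highest.

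The scaffold genes AIMP1, AIMP2 and EEF1E1 did not pass edgeR's test in any comparison. AIMP1 had 50.7, 48.6 and 52.5 CPM in control, 58.1, 52.3 and 54.1 in Carbo and 61, 63.1 and 60.3 in Carbo+COM33. Its log2 fold change in Carbo+COM33 against control was 0.28 (edgeR adjusted p = 0.0571), without overlap, and DESeq2 called it (adjusted p = 0.0306). AIMP2 was at 0.25 (adjusted p = 0.145) and EEF1E1, near 5 CPM, at 0.23 (0.513) in the same comparison.

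Among the elongation factors that take charged tRNA to the ribosome, 4 of the 5 listed genes were tested, VARS included. EEF1D, a subunit of the exchange factor of eEF1A that binds VARS, fell in Carbo+COM33 against control by 0.53 (SE 0.1, edgeR adjusted p = 0.0123). It had 67.2, 64.9 and 70.2 CPM in control, 52.5, 53.5 and 46.7 in Carbo and 41.4, 45.7 and 52.7 in Carbo+COM33. In the paired Carbo against control fit EEF1D fell by 0.41 (adjusted p = 0.000479), and by 0.23 (adjusted p = 0.0278) with the GC and length trend removed.

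For mitochondrial tRNA charging and delivery (QRSL1, GATB, GATC, MTFMT, TUFM, TSFM, GFM1 and GFM2), 0 of 8 passed in any unpaired edgeR comparison. The paired fit of Carbo against control called GFM2, a mitochondrial ribosome recycling factor, which rose by 0.21 (edgeR adjusted p = 0.0482) and was at 0.11 (0.377) after the GC and length correction. Of 14 genes of tRNA maturation and quality control, 0 passed in unpaired edgeR. In Carbo+COM33 against Carbo DESeq2 called 2 higher, DTD1 and HSD17B10, beside 677 of all 16450 genes. There unpaired edgeR with the correction called 1 higher, DTD1 (adjusted p = 0.0405), beside 643 of all genes. TRNT1, which adds the CCA end to tRNA, rose by 0.22 (adjusted p = 0.0376) and HSD17B10, a subunit of mitochondrial RNase P, fell by 0.25 (adjusted p = 0.00897) in the paired fit, and neither passed after the GC and length correction. The protein genes of the mitochondrial genome, which the mitochondrial synthetases serve, moved in the paired fit of Carbo against control. There 9 of 12 tested rose and 1 fell (median 0.22), beside 11.2% and 11.5% of all genes. With the correction 9 rose and 1 fell, beside 9.96% of all genes in either direction.

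The amino acid response was described from 17 genes. In Carbo against control 0 passed unpaired, while in the paired fit 1 rose and 10 fell, beside 11.2% and 11.5% of all genes. DDIT4, an inhibitor of mTORC1, fell by 0.91 (edgeR adjusted p = 9.18e-07), from 293, 228 and 197 CPM to 181, 128 and 84. CEBPB, a partner of ATF4, fell by 0.42 (adjusted p = 0.000401), ATF3 by 0.33 (0.000296) and TRIB3, an ATF4 target, by 0.31 (0.000312). ALDH1L2, a mitochondrial folate enzyme, rose by 0.75 (adjusted p = 0.00459). With the GC and length trend removed 1 rose (ALDH1L2) and 4 fell (DDIT4, ATF3, DDIT3 and STC2), beside 9.96% of all genes in either direction.

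ATF4 itself had 660, 595 and 608 CPM in control, 564, 524 and 536 in Carbo and 571, 553 and 633 in Carbo+COM33. Control lay above Carbo without overlap, and the paired log2 fold change was -0.20 (edgeR adjusted p = 0.00273), or -0.07 (0.369) after the correction. ASNS, the asparagine synthetase often used as a readout of ATF4, was near 3 CPM in every group and did not pass (0.10, -0.10 and 0.01 in the 3 comparisons). The 13 synthetases listed as ATF4 targets had medians of -0.02, 0.09 and 0.07. In Carbo+COM33 against Carbo the response list had 1 call, beside 4.96% of all genes. It was ATF3, an ATF family repressor, which rose by 0.71 (SE 0.142, edgeR adjusted p = 0.0146) from 187, 145 and 123 CPM to 230, 242 and 272.

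Of 10 amino acid transporters 0 passed in unpaired edgeR. In Carbo+COM33 against control DESeq2 called 2 higher (SLC38A1 and SLC38A2) and 2 lower (SLC6A9 and SLC7A5). Of all 16450 genes it called 846 higher and 717 lower. In the paired Carbo against control fit 0 rose and 3 fell, beside 11.2% and 11.5% of all genes. SLC3A2 fell by 0.29 (edgeR adjusted p = 0.00022), SLC6A9 by 0.22 (0.0254) and SLC7A5 by 0.15 (0.0184). After the GC and length correction SLC3A2 was at -0.15 (0.0319), SLC6A9 at -0.05 (0.73) and SLC7A5 at 0.04 (0.59), and SLC1A5 was called higher at 0.18 (0.0456). SLC3A2 and SLC7A5 form the LAT1 carrier of large neutral amino acids. Of 16 genes for the kinases of eIF2 alpha, eIF2 and its regulators, 0 passed in unpaired edgeR. DESeq2 called 1, EIF2S1, higher in Carbo+COM33 against control (adjusted p = 0.0214), beside 846 of all 16450 genes. In the paired fit of Carbo against control 5 rose and 1 fell, beside 11.2% and 11.5% of all genes. With the correction 3 rose and 1 fell, beside 9.96% of all genes in either direction. EIF2AK4, which encodes GCN2, rose by 0.18 (adjusted p = 0.00902), and PPP1R15A, the phosphatase subunit that reverses the phosphorylation, fell by 0.59 (adjusted p = 9.18e-07).

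WARS, the tryptophan enzyme, is inducible by interferon, so 13 interferon genes were read beside it. WARS did not pass in any comparison (-0.02, 0.09 and 0.07). IRF1, an interferon-induced transcription factor, had 70.9, 47.7 and 41.5 CPM in Carbo and 109, 99.8 and 106 in Carbo+COM33, and rose by 0.98 (SE 0.17, edgeR adjusted p = 0.00756). IFIT3 rose by 0.36 (edgeR adjusted p = 0.0455). These were the 2 calls among the 13 in Carbo+COM33 against Carbo, beside 4.96% of all genes. Against control IRF1 (0.64) and IFIT3 (0.39) rose and IFIT1 fell by 0.50 (edgeR adjusted p = 0.0323). These were 3 calls among the 13, beside 6.29% of all genes. In the paired Carbo against control fit 2 of the 13 rose and 3 fell, beside 11.2% and 11.5% of all genes, and IRF1 fell by 0.36 (adjusted p = 0.00143). With the GC and length trend removed IRF1 was still lower, at -0.29 (edgeR adjusted p = 0.00703). In all 2 of the 13 passed there, beside 9.96% of all genes in either direction.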

How the data were processed

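RNA-seq of SKOV3 cells (9 libraries) was read from 1 deposited table. The authors deposited whole-number read counts per gene and, in a second block, FPKM. HISAT2, HTSeq 0.11.2 and DESeq2 1.26.0 on GRCh38 were used, per the submitters' processing notes, and settings, strand included, are not given in the sources used here. The deposited FPKM equalled the count over exon length and library total (largest difference 8.2e-12). Names, positions and overlaps come from GENCODE 29, which matched all 32378 genes.

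Counts were tested with edgeR 4.0.16 (R 4.3.3): filterByExpr, TMM, quasi-likelihood fit of 9 libraries by group (6 residual degrees of freedom, common dispersion of 0.0133), Benjamini-Hochberg adjustment over 16450 genes. CPM are on the TMM scale. Depth limits the low members: SARS2 had about 1 CPM or less in most libraries. In simulated data of 16450 genes, 100 genes drawn from all levels changed by 1 log2 unit and 100 by 0.5. For Carbo against control, 73% and 33% of these were recovered, with 6 unchanged genes called. For Carbo+COM33 against Carbo it was 74% and 30%, with 15, and for Carbo+COM33 against control 67% and 31%, with 10. Simulated libraries of the same number did not deviate together, so the rates do not describe the paired fits, nor the synthetases in particular.

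Replicate numbers paired control with Carbo libraries (correlation of deviations over 0.1 in each of 3 pairs, 6607 genes) and did not pair Carbo+COM33 libraries with either. Some libraries of unlike number also exceeded 0.1. Carbo 2 had 0.402 with control 3, and Carbo 3 had 0.254 with control 2. Carbo+COM33 2 had 0.524 with control 3 and 0.412 with Carbo 3. No 2 libraries agreed within sampling noise. The members and lists were chosen with earlier results of these data known. Values per library are given for members that passed in any unpaired or paired fit, and EARS2 was added after its values were seen. Companion genes named passed likewise, at most 5 a list by size, besides ATF4, ASNS and the scaffold genes. Companion genes named only for a DESeq2 call or a call with the GC and length correction were chosen after their values were seen. Alternatives were other scaling, filters, DESeq2 1.42.0, limma 3.58.1 on log2(FPKM + 0.1) and log2(FPKM + 1), blocks, a GC and length correction (loess, span 0.3) and leaving out libraries.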

Additional observations from a re-analysis of the deposited data

How the results depend on the processing

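Medians of the cytosolic and mitochondrial genes moved by less than the spread between replicates in each alternative run. That is a wide limit, since the spread is that of a difference between single libraries. In Carbo against control it was 0.099 for the cytosolic and 0.0689 for the mitochondrial median, which were 0.05 and -0.08. The GC and length correction moved these to 0.02 and -0.05. In Carbo+COM33 against Carbo (spread 0.0906) the mitochondrial median went from 0.07 to -0.01 in the blocked fit without pair 3. No call of the unpaired edgeR fit changed sign. VARS, lower in the paired fit (-0.14, adjusted p = 0.0327), stood at 0.08 (0.355) with the GC and length correction. Counts of calls were less stable. For Carbo against control, calls over all genes were 928 with no filter on low counts, 132 with DESeq2, 3739 with the replicate number as a block (6 libraries) and 1638 with block and GC and length correction. That block called 5 cytosolic and 3 mitochondrial genes, and 1 mitochondrial gene with the correction. For Carbo+COM33 against Carbo (816), they were 1876 with no filter, 1554 with a block over 9 libraries, 1252 with the GC and length correction, 502 with a block of 6 libraries, 446 and 447 with limma at a pseudocount of 0.1 and 1, and 1356 with DESeq2. CARS2 was lost, leaving 0 mitochondrial genes, with the block of 6 libraries (adjusted p = 0.0602) and both limma fits (0.0594 and 0.0618). For Carbo+COM33 against control (1035), they were 1934 with no filter, 1625 with a block over 9 libraries, 1658 with block and correction, 652 and 656 with limma and 1563 with DESeq2. There, 0 cytosolic genes passed with the block of 6 libraries or either limma fit. With a block over 9 libraries 1 mitochondrial gene passed. The single mitochondrial call differed in gene and direction between other settings. DESeq2 called EARS2 lower (adjusted p = 0.0398). The correction, and block and correction, each called CARS2 higher (edgeR adjusted p = 0.0331 and 0.00749). Carbo+COM33 libraries share only a number with the others, so calls lost under the block are not read as weaker effects.

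Leaving out 1 library gave 0 to 1034, 120 to 2721 and 114 to 2208 calls over all genes in the 3 comparisons, and leaving out 1 pair in the blocked fit gave 1623 to 4338 (2842 without pair 3), 280 to 1879 (1336 without pair 3) and 310 to 5163. Cytosolic calls ran from 0 to 0, 0 to 0 and 0 to 5 without 1 library, and from 0 to 9, 0 to 2 and 0 to 10 without 1 pair. Mitochondrial calls ran from 0 to 1 in each comparison without 1 library, and from 1 to 4, 0 to 1 and 0 to 4 without 1 pair. Of 621 values of single named members, 558 stayed on their side of the threshold, 34 came to pass and 29 ceased to. The cause of these changes was not tested.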

Other observations

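Control and Carbo libraries of the same number also shared their order among the synthetases. Replicate 3 was the highest library in both groups for 18 of 36 members (50%), against 19.4% of all genes tested, and replicate 1 was the lowest in both for 13 of 36 (36.1%), against 24.8%.

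Overlapping genes bear on a few members. MARS has 12.4% of its exon bases opposite other genes, DDIT3 among them, and DDIT3 had 1241 to 1700 counts per library. VARS2 shares 22% of its exon bases with GTF2H4 on the same strand, which had 0 to 3 counts. For 11 members GENCODE 29 lists pseudogenes by name, with 3 for KARS and 2 for CARS.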
